A study of Rattus norvegicus with 6 samples.

Results

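Lgals3, Cd68, Cd44 and Aif1, 4 genes used as markers of activated phagocytes in nervous tissue, were followed in the rat median eminence, the floor of the hypothalamus where hormone-releasing axons meet the vessels that lead to the pituitary. The genes were chosen by their Ensembl identifiers, ENSRNOG00000010645, ENSRNOG00000037563, ENSRNOG00000006094 and ENSRNOG00000000853 in the order above, and are 4 of the 34510 rows of the count table. The names came with the list of identifiers. Neither the count table nor the RefSeq gene table used here pairs Ensembl identifiers with symbols, so the pairing of name and identifier was not checked here. The study sequenced RNA of the median eminence of rats of the strain labelled S-D. There were 3 samples collected 1 day after the surgery labelled PEL, called PEL below, and 3 samples labelled Control. The labels used here do not spell out PEL and do not say whether controls had a sham operation, how old the animals were, or whether a sample is 1 animal. By its title, the series concerns how the hypothalamus repairs itself and how body fluid balance recovers.

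Microglia are the resident phagocytes of the brain, and after an injury they are joined by macrophages that derive from blood monocytes. Both take up debris into lysosomes, and both change their surface receptors, lectins and lysosomal proteins as they become active. Lgals3 encodes galectin-3, a lectin that binds beta-galactosides and gathers at damaged lysosomes, and it is low in resting microglia and high in activated phagocytes. Cd68 encodes macrosialin, a glycoprotein of late endosomes and lysosomes. Cd44 encodes a receptor for the matrix sugar hyaluronan that also binds osteopontin, and it is carried by leukocytes and by reactive glia. Aif1 encodes IBA1, a calcium-binding protein that bundles actin and is present in resting as well as activated microglia.

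Assigned reads per library ranged from 13756297 to 17144108, and each level below is given as CPM (counts divided by library size on a fixed common scale) after TMM scaling over all rows. The scaling factors lay between 0.979 and 1.02, so they moved no level by much. All 4 genes passed the filter on low counts, which left 17133 rows for the test. Of these rows 906, or 5.29%, had an adjusted p under 0.05 in edgeR's quasi-likelihood test, 722 of them (4.21% of the rows tested) higher after PEL and 184 (1.07%) lower. These counts changed when 1 library was left out, which also made a group smaller. There were 173 called rows, 161 of them higher, without control replicate 1, and 2092, with 1409 higher, without PEL replicate 3. The count was also over 1.5 times lower without PEL replicate 1 (251), control replicate 2 (187) or control replicate 3 (246). Without PEL replicate 2 it was 691. Among the 4 phagocyte genes 2 were called, Lgals3 and Cd44, both higher after PEL. The 3 PEL values lay above the 3 control values in 3 of the 4 genes, all but Cd68, and in 16.2% of all rows tested. The median log2 fold change over all tested rows was -0.016.

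**Figure D1:**
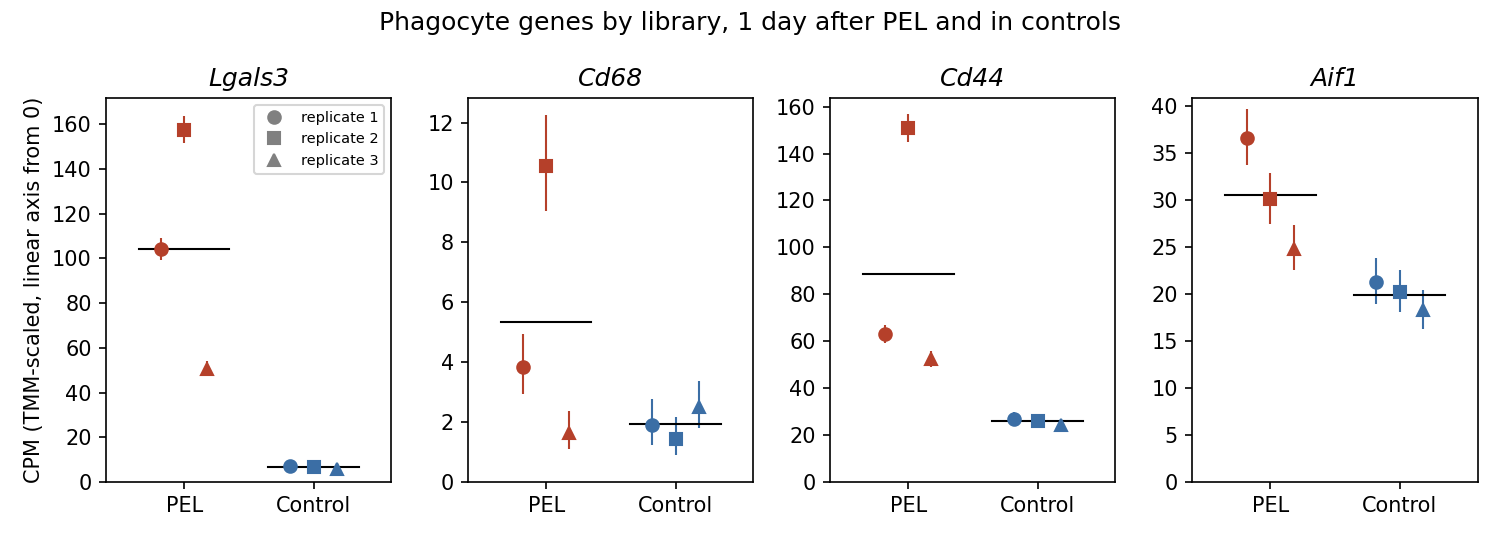
Level of each phagocyte gene in CPM, on a linear axis that starts at 0, in the 3 PEL libraries (left, red) and the 3 control libraries (right, blue). Vertical bars are 95% counting intervals, horizontal lines are group means, and the axes differ between genes. The PEL points lie above all control points for Lgals3, Cd44 and Aif1, while for Cd68 PEL replicate 3, at 1.65 CPM, lies among the controls.

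Lgals3, the galectin-3 gene, showed the largest rise of the 4. It had 104, 158 and 50.6 CPM in PEL replicates 1, 2 and 3, against 7.25, 6.81 and 5.93 CPM in control replicates 1, 2 and 3. The groups stood far apart, since the lowest PEL library was 6.98 times the highest control. The means were 104 ± 53.5 CPM after PEL and 6.66 ± 0.674 CPM in controls (SD, n = 3 each). The log2 fold change was 3.97 (SE 0.40, 95% interval 3.03 to 4.90), a 15.7-fold rise, with an edgeR adjusted p = 0.0029. By the size of its log2 fold change Lgals3 ranked 16 among the 17133 rows tested and 13 among the rows called higher. Change from the control mean in single libraries was taken on log2(CPM + 1), another scale, which understates the change of low genes. By this change Lgals3 ranked 5, 9 and 11 among all tested rows in PEL replicates 1, 2 and 3. It was thus near the top in each library. Over the 15 alternatives tried, its edgeR, limma or DESeq2 adjusted p ranged from 1.23e-14 to 0.0259. In bulk tissue more cells of a type and more RNA per cell cannot be told apart, for this gene and for the others. Which cells held the transcript was not measured, and marker genes of other cell types were not examined, since their identifiers are not named here.

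The values rested on 1680, 2570 and 861 reads in PEL replicates 1, 2 and 3, and on 100, 109 and 100 reads in control replicates 1, 2 and 3. Pooled over libraries, the ratio of PEL to control levels was 15.6, with a 95% interval of 13.9 to 17.6 that covers counting error only. Counting error was therefore small beside the spread between PEL libraries. In controls the spread was close to counting error, with a coefficient of variation (CV) of 10.1% against 9.85% from counting alone. After PEL the CV was 51.4% against 2.42% from counting.

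Cd44, the hyaluronan receptor gene, also rose. It had 63.0, 151 and 52.2 CPM in PEL replicates 1, 2 and 3, against 27.0, 26.2 and 24.4 CPM in control replicates 1, 2 and 3. All PEL values lay above all control values, and PEL replicate 2 stood apart at 2.39 times replicate 1. The means were 88.7 ± 54.1 CPM after PEL and 25.8 ± 1.34 CPM in controls (SD, n = 3 each). The log2 fold change was 1.78 (SE 0.37, 95% interval 0.92 to 2.64), a 3.43-fold rise with an edgeR adjusted p = 0.0371, and it ranked 198 among the rows called higher. The size of the rise depended on PEL replicate 2, without which it was 1.17 on the log2 scale (SE 0.11), with an edgeR adjusted p = 0.00372, and without PEL replicate 3 it was 2.05 (edgeR adjusted p = 0.0114). The call was lost without PEL replicate 1 (edgeR adjusted p = 0.0735) and without control replicate 1, 2 or 3 (0.141, 0.136 and 0.127, edgeR adjusted p). In these fits, which had a smaller group, the log2 fold change was 1.97 without PEL replicate 1 (SE 0.40). It was 1.81, 1.79 and 1.75 without control replicates 1, 2 and 3 (SE 0.46 each). With limma-voom the call was also lost (adjusted p = 0.0682). Over all alternatives the edgeR, limma or DESeq2 adjusted p ranged from 0.00372 to 0.141.

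Aif1, the IBA1 gene, differed less. It had 36.6, 30.1 and 24.8 CPM in PEL replicates 1, 2 and 3, against 21.2, 20.2 and 18.3 CPM in control replicates 1, 2 and 3. The groups did not overlap, but the lowest PEL library was only a little above the highest control, and their counting intervals, 22.5 to 27.3 and 18.9 to 23.8 CPM, did. The means were 30.5 ± 5.90 CPM after PEL and 19.9 ± 1.51 CPM in controls (SD, n = 3 each). The log2 fold change was 0.62 (SE 0.15, 95% interval 0.28 to 0.96), a ratio of 1.53, and the edgeR adjusted p = 0.055 missed the threshold. The call changed with other choices, among them these: the DESeq2 Wald test gave an adjusted p = 0.00556, edgeR without a filter 0.0351 and edgeR without PEL replicate 3 an adjusted p = 0.0134. Over the settings tried for Aif1, the edgeR, limma or DESeq2 adjusted p ranged from 0.00556 to 0.171 and the log2 fold change from 0.46 to 0.75.

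Cd68, the macrosialin gene, was the least certain of the 4. It had 3.84, 10.6 and 1.65 CPM in PEL replicates 1, 2 and 3, against 1.89, 1.44 and 2.49 CPM in control replicates 1, 2 and 3. PEL replicate 2 was far above every other library, PEL replicate 1 was above the controls, and PEL replicate 3 lay within the control range. The means were 5.35 ± 4.64 CPM after PEL and 1.94 ± 0.529 CPM in controls (SD, n = 3 each). The log2 fold change was 1.46 (SE 0.61, 95% interval 0.04 to 2.87), with an edgeR adjusted p = 0.21 (unadjusted p = 0.0452). Leaving out PEL replicate 2 gave 0.50 on the log2 scale (SE 0.42) and the highest edgeR adjusted p of all alternatives, 0.548. Leaving out PEL replicate 3 gave 1.89 (SE 0.45) and the lowest edgeR adjusted p, 0.0407.

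Cd68 had the fewest reads of the 4 genes, with 62, 172 and 28 reads in PEL replicates 1, 2 and 3, against 26, 23 and 42 reads in control replicates 1, 2 and 3. With so few reads the 95% counting interval of PEL replicate 3 ran from 1.09 to 2.38 CPM, which overlaps that of every control library. The interval of PEL replicate 2 ran from 9.03 to 12.3 CPM and overlapped no other. The CV after PEL was 86.7%, against 10.7% from counting alone, so the scatter between PEL libraries was far wider than counting error. PEL replicate 3, at 1.65 CPM, was below the control mean of 1.94 CPM, and its interval lay below the level of PEL replicate 1.

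**Figure D2:**
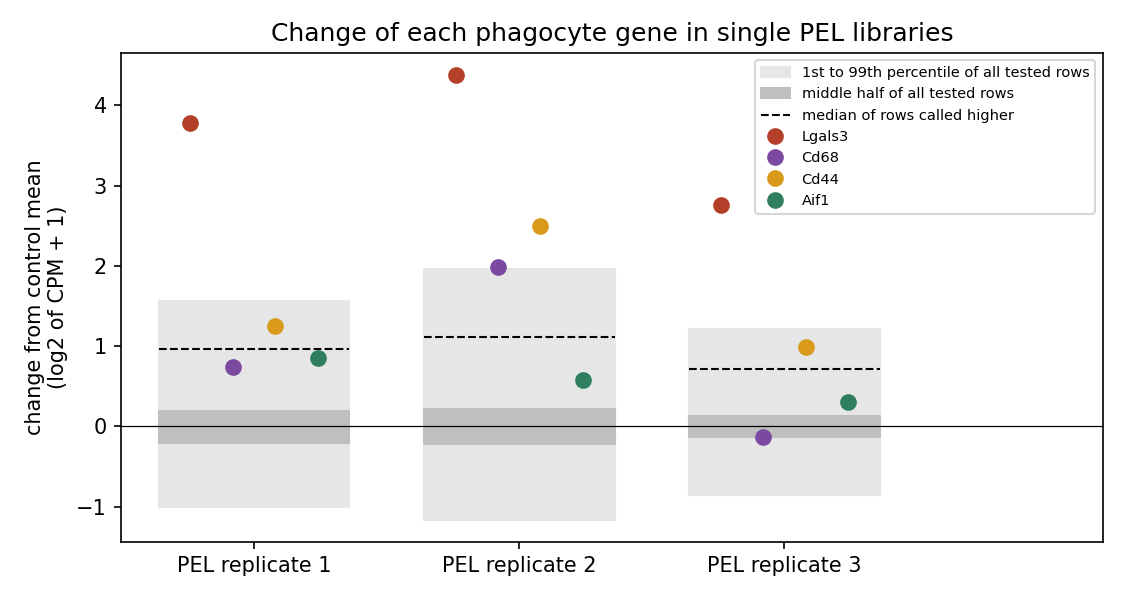
Change of each phagocyte gene from the control mean, as log2(CPM + 1), in single PEL libraries, with grey bands for all 17133 tested rows and a dashed line for the median of the 722 rows called higher. Lgals3 lies far above the bands in each library, between 2.76 and 4.38, and Cd68 in PEL replicate 3 lies just below 0, at -0.13.

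The 4 genes did not follow 1 pattern across the PEL libraries. On the log2(CPM + 1) scale, which understates the change of low genes such as Cd68, Lgals3 lay 3.78, 4.38 and 2.76 above the control mean in PEL replicates 1, 2 and 3. The same change was 1.26, 2.50 and 0.99 for Cd44, and 0.74, 1.99 and -0.13 for Cd68. These 3 genes were highest in replicate 2 and lowest in replicate 3. Aif1 was highest in replicate 1, with changes of 0.85, 0.57 and 0.31 in PEL replicates 1, 2 and 3. The order with replicate 2 highest and replicate 3 lowest was held by 20.3% of all tested rows and by 433 of the 722 rows called higher. The median change of the rows called higher was 0.97, 1.12 and 0.71 in PEL replicates 1, 2 and 3. Replicate 3 thus lay lowest for these rows as it did for the 4 genes, and what sets the PEL libraries apart from each other was not tested.

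The distance between PEL libraries differed by gene. The level in PEL replicate 2 was 6.41 times that in replicate 3 for Cd68, 3.11 times for Lgals3, 2.89 times for Cd44 and 1.21 times for Aif1. The CV among PEL libraries was 61.0% for Cd44 and 19.3% for Aif1, beside the values given above for Lgals3 and Cd68. Over rows with a mean read count within 0.5 on the log2 scale of the gene's own, the median CV among PEL libraries was 8.22% for Lgals3 and for Cd44, 21.2% for Cd68 and 10.2% for Aif1. The median was 17.4% over the rows called higher. Those rows passed a test that takes scatter among these same libraries into account, and Cd68 and Aif1 did not pass it. The share of all tested rows with a larger CV was 1.13% for Cd68, 3.18% for Cd44, 5.24% for Lgals3 and 30% for Aif1. Of the rows called higher it was 0.554%, 3.46%, 7.34% and 44.6% in the same order. In controls the CV was 10.1% for Lgals3, 27.3% for Cd68, 5.17% for Cd44 and 7.61% for Aif1, and the median over all tested rows was 7.75%. Over the rows with similar reads, the median control CV was 4.89% for Lgals3, 16.7% for Cd68, 4.87% for Cd44 and 6.48% for Aif1. That match used reads over all libraries, and Lgals3 had far fewer reads in controls than after PEL. Cd68 had the largest control CV of the 4 genes, but counting its few reads alone gives a CV of 18.2%.

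Ratios between 2 genes within a library are free of scaling and ask whether the genes moved by unequal amounts. They do not compare abundance, since transcript lengths were not used. All 6 pairs were compared by an exact two-sided permutation test, which cannot go below 0.1 with 3 libraries against 3, with Benjamini-Hochberg adjustment over the pairs. The Lgals3 to Aif1 read ratio was 2.85, 5.24 and 2.04 in PEL replicates 1, 2 and 3, against 0.341, 0.337 and 0.325 in control replicates 1, 2 and 3. Control libraries held this ratio nearly constant, and every PEL library was far above them. The difference was 3.22 on the log2 scale, a 9.34-fold larger ratio after PEL, with an exact permutation p = 0.1 and an adjusted p = 0.15.

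The Lgals3 to Cd44 read ratio was 1.65, 1.05 and 0.970 in PEL replicates 1, 2 and 3, against 0.269, 0.260 and 0.243 in control replicates 1, 2 and 3. The groups did not overlap, and the difference was 2.21 on the log2 scale (exact permutation p = 0.1, adjusted p = 0.15). PEL replicates 2 and 3, which differed most in the level of either gene, were close in the ratio of both. The Cd44 to Aif1 read ratio was 1.72, 5.02 and 2.10 in PEL replicates 1, 2 and 3, against 1.27, 1.30 and 1.33 in control replicates 1, 2 and 3. These groups did not overlap either, with a difference of 1.02 on the log2 scale, and PEL replicate 2 was well above the other PEL libraries (exact permutation p = 0.1, adjusted p = 0.15). Without PEL replicate 2 the difference was 0.55. The Lgals3 to Cd68 read ratio was larger after PEL by 2.72 on the log2 scale without overlap of the groups (exact permutation p = 0.1, adjusted p = 0.15).

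The 2 other ratios, both with Cd68, had groups that overlapped. For Cd68 to Aif1 the mean log2 ratio was -2.89 ± 1.24 after PEL and -3.39 ± 0.477 in controls (SD, n = 3 each, exact permutation p = 0.7, adjusted p = 0.7), and the sign of the difference turned without PEL replicate 2, at -0.19. For Cd44 to Cd68 it was 4.29 ± 0.615 after PEL and 3.77 ± 0.452 in controls (SD, n = 3 each, exact permutation p = 0.5, adjusted p = 0.6).

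**Figure D3:**
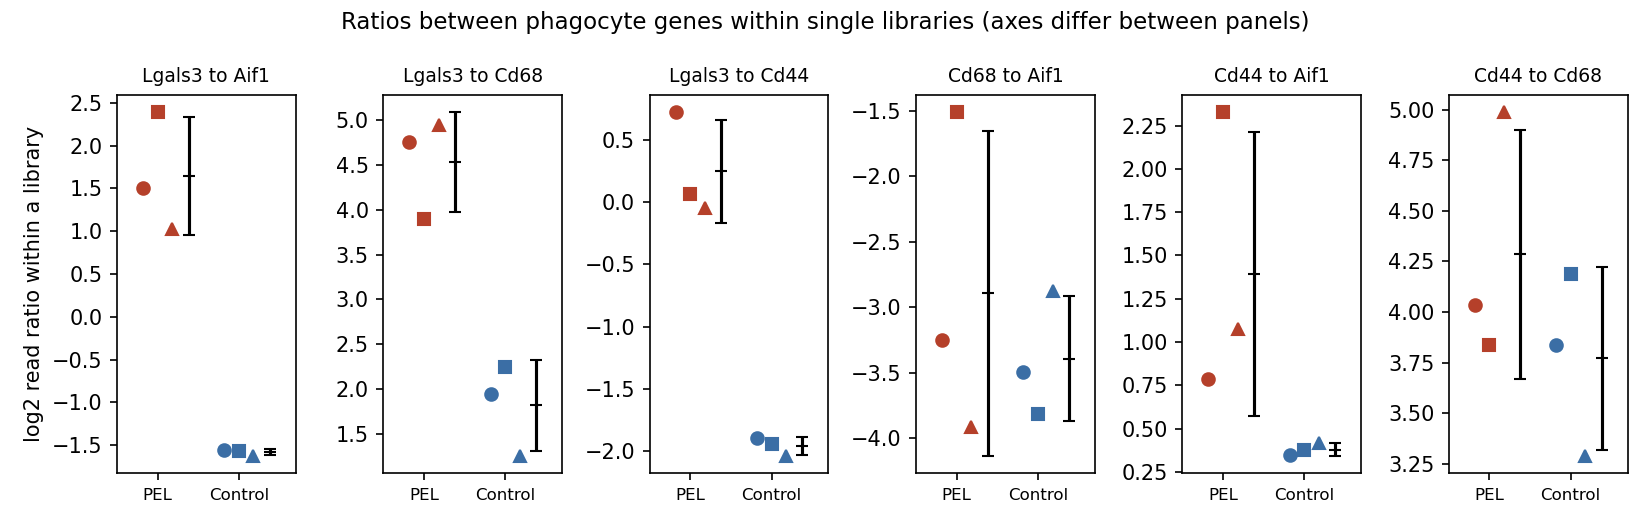
Log2 ratio of the reads of 2 phagocyte genes within each library, PEL (left, red) and control (right, blue), with the mean and SD beside the points and a separate axis for each pair. Marker shapes give the replicate: circle 1, square 2, triangle 3. The 3 ratios with Lgals3 on top separate the groups most widely, by 2.21 to 3.22, and the Cd68 to Aif1 and Cd44 to Cd68 panels overlap.

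Promoter sequences are shown for Cd68 and Cd44 because only theirs were available, and a link to reads or calls was not tested. Of the 4 genes 2 were matched by symbol in the RefSeq promoter table of the GRCr8 assembly, and Lgals3 and Aif1 were not. Each window holds 250 bases before the start site and 50 from it, both on the minus strand and written 5′ to 3′, with motif matches in capitals. Cd68 lies at chr10:54882392-54882691 and Cd44 at chr3:109699375-109699674.
Cd68: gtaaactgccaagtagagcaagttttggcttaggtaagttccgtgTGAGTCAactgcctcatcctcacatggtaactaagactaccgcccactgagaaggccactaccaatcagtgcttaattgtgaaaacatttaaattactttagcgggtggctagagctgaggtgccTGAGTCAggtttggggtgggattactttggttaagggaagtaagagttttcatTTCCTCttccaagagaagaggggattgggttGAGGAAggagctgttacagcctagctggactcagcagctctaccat
Cd44: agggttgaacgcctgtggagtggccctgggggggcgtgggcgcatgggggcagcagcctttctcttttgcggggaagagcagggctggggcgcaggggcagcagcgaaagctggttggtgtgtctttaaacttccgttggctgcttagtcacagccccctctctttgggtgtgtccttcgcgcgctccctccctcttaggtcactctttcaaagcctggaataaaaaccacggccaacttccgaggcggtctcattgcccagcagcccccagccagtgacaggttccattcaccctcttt
Motifs were searched on both strands and none of the matches overlap. The AP-1 motif TGANTCA, bound by Fos and Jun proteins, was found at 2 places in the Cd68 window. These begin 205 and 80 bases before the start site. Any match of this motif was found in 7.33% of all 33469 promoter windows, and windows with 2 matches were not counted. The PU.1 motif GAGGAA, bound by a factor that myeloid cells need, was found at 2 places in the Cd68 window. In 27.6% of all windows this motif had any match. Its matches in the Cd68 window begin 27 bases before and 4 bases after the start site. The STAT motif TTCNNNGAA and the C/EBP motif TTGCNNAA were in neither window, and in 8.87% and 10.6% of all windows. None of the 4 motifs was in the Cd44 window. These matches describe letters only.

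By profile over the 6 libraries, the rows most like the 4 genes were sought among 12545 Ensembl rows with a mean of at least 5 CPM. Likeness was the Pearson correlation with the mean of the standardized log2(CPM + 1) of the 4 genes, which had 0.83, 1.39 and 0.01 in PEL replicates 1, 2 and 3, against -0.65, -0.80 and -0.78 in control replicates 1, 2 and 3. The closest rows were ENSRNOG00000025459, with r = 0.999, and ENSRNOG00000000938, with r = 0.998, over 6 libraries. These values are the highest of many and describe only the shape of the profile, to which the split between groups contributes. Neither row has a name here. ENSRNOG00000025459 had 103, 110 and 93.6 CPM in PEL replicates 1, 2 and 3, against 87.9, 85.7 and 85.6 CPM in control replicates 1, 2 and 3. It followed the mean profile, which not each of the 4 genes does, at a small size, with a log2 fold change of 0.24 (SE 0.07) and an edgeR adjusted p = 0.103. ENSRNOG00000000938 was higher by 0.28 on the log2 scale (SE 0.08), with an edgeR adjusted p = 0.0959.

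**Figure D4:**
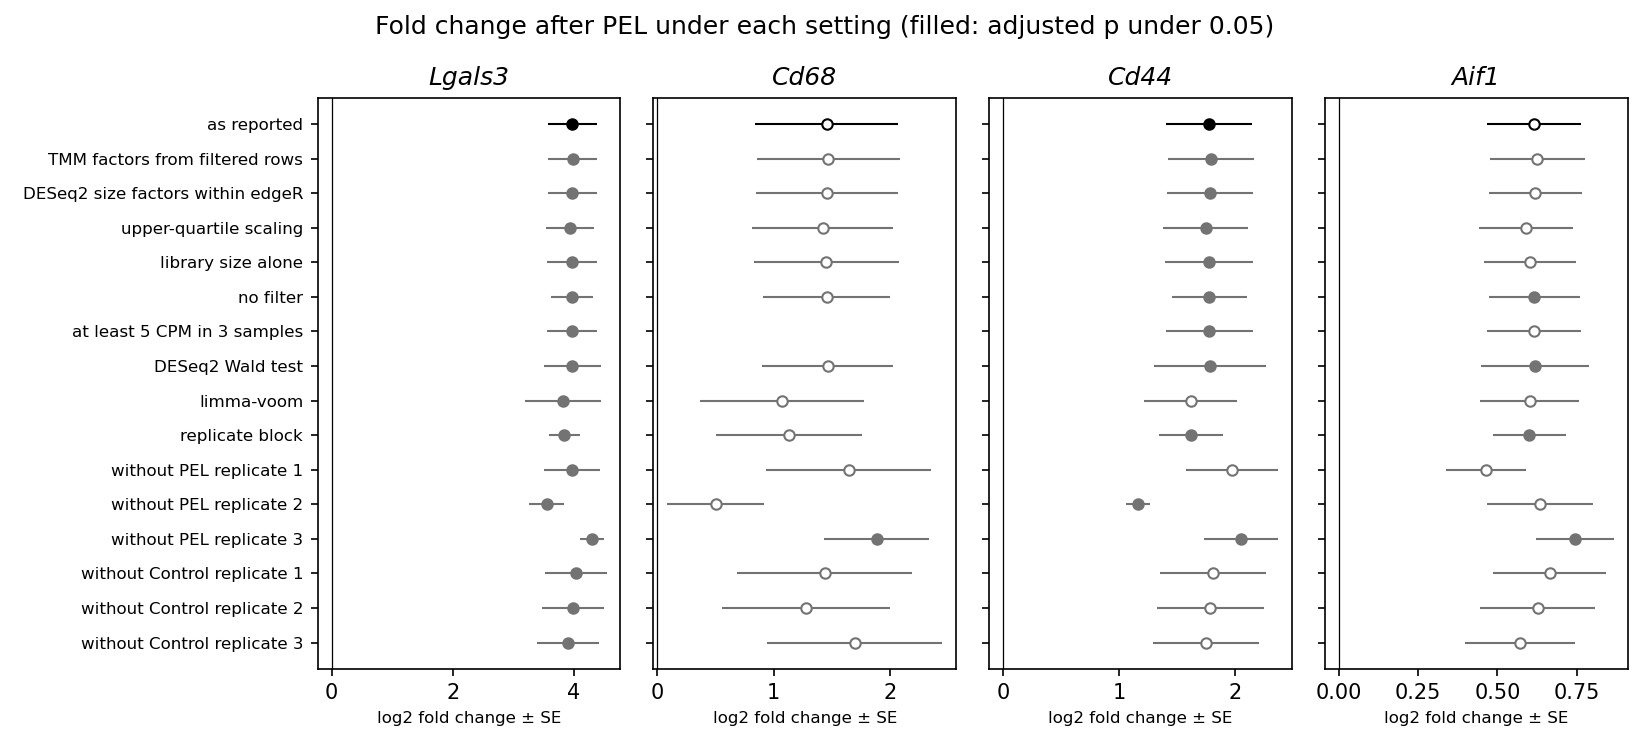
Log2 fold change after PEL against controls with its SE for each phagocyte gene under the reported fit and each alternative, where filled points have an adjusted p under 0.05 and the axes differ between genes. Lgals3 is filled in every row, with values of 3.55 to 4.30, while Cd44, Aif1 and Cd68 change between filled and open. Cd68 has no point at the filter of 5 CPM in 3 samples, which it did not pass.

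Across the 15 alternatives Lgals3 passed the threshold in all 15, Cd44 in 10, Aif1 in 4 and Cd68 in 1 of the 14 that tested it. The log2 fold change stayed above 0 for each gene in each alternative that tested it. For Lgals3, Cd44 and Aif1, whose groups do not overlap, a kept sign is no sign of stability.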

How the data were processed

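The authors deposited raw read counts per gene for 6 libraries, per the file headers. HISAT2 2.0.5, featureCounts 1.5.0-p3 and DESeq2 1.16.1 are named in the submitters' processing notes. Genome build, annotation and strand setting: not given in the sources used here. How reads over overlapping genes were counted is therefore not known here. Of 34510 rows, 32883 have an Ensembl identifier, and none is a total.

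Counts were scaled by TMM over all rows, filtered with filterByExpr (minimum count 10) and tested two-sided with edgeR 4.0.16 (glmQLFit, glmQLFTest, limma 3.58.1, R 4.3.3), group as the only term, with Benjamini-Hochberg adjustment over all 17133 rows and a threshold of 0.05. The SE is the log2 fold change over the square root of F. On simulated counts only the fold change estimates of the pipeline were checked, not its calls. Alternatives included DESeq2 1.42.0 and limma-voom. Counting intervals are exact Poisson, or exact binomial for pooled ratios. Figures used matplotlib 3.10.9.

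Libraries of a group differed beyond sampling noise (chi-square per degree of freedom 4.5 to 24.1), so all 6 were kept as separate replicates. Separate animals are not stated in the labels, and each p-value reflects only the scatter among these libraries, which may be technical. The genes named were the 4 members and the 2 rows of the most similar profile. The lists of cell type markers need symbols and were not run. Members and lists were chosen with earlier results of these data known.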

Additional observations from a re-analysis of the deposited data

How the results depend on the processing

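Lgals3 kept its direction and its call under every alternative run. The number of called rows was 906 as reported, 1636 with the DESeq2 Wald test, and 173 to 2092 when 1 library was left out, lowest without control replicate 1 and highest without PEL replicate 3. Cd44 lost its call with limma-voom (log2 fold change 1.62), and Aif1 gained one with no filter (0.62), with the DESeq2 Wald test (0.62) and with the replicate block (0.60), where the edgeR adjusted p was 0.0489. With the replicate block 544 rows were called. Same-numbered libraries did not deviate together (correlations 0.00386, -0.0825 and -0.0519), and not every library correlated best with its own number, so the numbers were not taken as pairs. The causes of these changes were not tested. Leaving out 1 library gave log2 fold changes of 3.55 to 4.30 for Lgals3, 0.50 to 1.89 for Cd68, 1.17 to 2.05 for Cd44 and 0.46 to 0.75 for Aif1. The log2 differences of read ratios then ranged from 2.85 to 3.53 for Lgals3 to Aif1, 2.44 to 3.04 for Lgals3 to Cd68, 1.97 to 2.35 for Lgals3 to Cd44, -0.19 to 1.01 for Cd68 to Aif1, 0.55 to 1.32 for Cd44 to Aif1 and 0.16 to 0.74 for Cd44 to Cd68. Other scalings moved the median of all rows by less than 0.1 on the log2 scale and no call of the 4 genes. Cd68 did not pass the stricter filter. It had the fewest reads of the 4 genes, and its CV among PEL libraries was 86.7%, against 10.7% from counting alone.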
